A study of Mus musculus with 7 samples.

Results

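The genes described here are 60 members of the G2/M and mitosis programme, chosen by symbol from the 26607 genes listed for each library, and none of the 60 symbols was missing. C2C12, a line of mouse myoblasts, stops dividing in low serum, and its cells then fuse into myotubes. RNA-seq libraries of C2C12 myotubes formed a control group without stimulation (n = 3, replicates 1, 3 and 4) and a group given electrical pulse stimulation (EPS, n = 4, replicates 1 to 4). EPS makes cultured myotubes contract and was applied 3 days after differentiation for 24 h, with 1 h of rest before collection. The sources used here do not say whether the libraries came from separate cultures, so the P-values measure only the spread between these samples, which may be technical. The question of the comparison is how the mitotic genes differ between the resting and the stimulated myotubes, and each EPS library is also shown alone.

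The members act from the end of DNA replication to the separation of daughter cells. Cyclin A and cyclin B bind CDK1 to start mitosis, the chromosomal passenger complex and the kinetochore attach chromosomes to the spindle, and the anaphase-promoting complex (APC/C) ends mitosis by marking securin and cyclin B for destruction. Their genes are switched on together late in the cycle by FOXM1 and by B-MYB bound to the MuvB complex, whose LIN54 subunit recognises the cell cycle genes homology region (CHR), while NF-Y binds the CCAAT box. A nucleus within a myotube has normally left the cycle, whereas unfused mononucleated cells of the same dish can still divide. In RNA from a whole dish, more cells in G2 and mitosis and more of these mRNAs per cell cannot be told apart.

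Most of the member promoters found held letters of these elements, which are described here as a feature of the gene list. Whether they bear on the difference between the groups was not tested. Promoters were taken from RefSeq on GRCm38.p6, and 51 of the 60 members had 1 or more entries, 53 in all, of 300 bases each (250 before and 50 after the transcription start). No entry was found for Foxm1, Ccna2, Cdc25c, Aurkb, Incenp, Kif20a, Tpx2, Dlgap5 and Smc4. The letters searched on both strands were TTTGAA or TTCGAA for the CHR and CCAAT for the NF-Y element. For E2F-like sites they were GGCGGG, and also TTCGCGC, and further TTGGCGC, the last of which can overlap the reverse complement of the CCAAT box. CHR letters were present in 77.4% of the 53 member entries and in 19.2% of all 32851 entries. CCAAT was present in 75.5% and 37.4%, E2F-like letters in 81.1% and 36.8%, and CHR and CCAAT together in 67.9% and 7.52%. In the 130 bases from 100 before to 30 after the start, CHR and CCAAT stood together in 45.3% of member entries and in 1.7% of all entries. Both were in the 300 bases of 9 of the 13 members with an entry that passed the test described below, and of 25 of the 38 that did not. A match is a description of the letters and was not tested as a site. The 130-base windows of the 8 members that passed and held both elements there follow, 5′ to 3′ on the strand of the gene, with CHR and CCAAT letters in capitals.
Ube2c promoter, chr2:164769829-164769958, plus strand: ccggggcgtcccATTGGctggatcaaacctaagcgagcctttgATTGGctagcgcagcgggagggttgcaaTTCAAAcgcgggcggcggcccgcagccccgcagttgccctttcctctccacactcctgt
Kif23 promoter, chr9:61946770-61946899, minus strand: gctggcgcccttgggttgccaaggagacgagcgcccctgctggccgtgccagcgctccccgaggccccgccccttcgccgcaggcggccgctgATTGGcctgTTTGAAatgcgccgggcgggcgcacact
Kif11 promoter, chr19:37376282-37376411, plus strand: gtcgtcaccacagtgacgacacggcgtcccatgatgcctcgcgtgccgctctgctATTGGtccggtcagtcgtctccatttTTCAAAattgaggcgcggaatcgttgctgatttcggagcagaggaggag
Ckap2l promoter, chr2:129297183-129297312, minus strand: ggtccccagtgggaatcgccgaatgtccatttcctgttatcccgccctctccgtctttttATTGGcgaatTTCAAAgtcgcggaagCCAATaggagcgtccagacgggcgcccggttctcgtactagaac
Cenpf promoter, chr1:189688057-189688186, minus strand: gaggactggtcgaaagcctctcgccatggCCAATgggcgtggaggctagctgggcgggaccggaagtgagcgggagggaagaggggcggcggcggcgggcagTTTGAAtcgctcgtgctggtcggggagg
Ccnb2 promoter, chr9:70421525-70421654, minus strand: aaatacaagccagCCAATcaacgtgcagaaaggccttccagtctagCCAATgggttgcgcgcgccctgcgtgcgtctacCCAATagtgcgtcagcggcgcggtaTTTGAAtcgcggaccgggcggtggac
Cenpa promoter, chr5:30666786-30666915, plus strand: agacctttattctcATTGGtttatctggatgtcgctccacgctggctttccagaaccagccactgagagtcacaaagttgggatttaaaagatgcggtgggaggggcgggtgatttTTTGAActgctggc
Racgap1 promoter, chr15:99651627-99651756, minus strand: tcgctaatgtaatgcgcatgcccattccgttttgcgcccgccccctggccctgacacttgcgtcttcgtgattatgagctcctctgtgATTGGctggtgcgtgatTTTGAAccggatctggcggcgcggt
The windows of the 2 members whose fitted level was not higher in EPS are given beside them, because 1 of them holds the same letters and the other does not.
Cdc25b promoter, chr2:131186848-131186977, plus strand: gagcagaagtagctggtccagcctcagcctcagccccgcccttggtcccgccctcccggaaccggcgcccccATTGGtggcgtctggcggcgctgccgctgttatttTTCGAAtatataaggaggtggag
Mybl2 promoter, chr2:163054535-163054664, plus strand: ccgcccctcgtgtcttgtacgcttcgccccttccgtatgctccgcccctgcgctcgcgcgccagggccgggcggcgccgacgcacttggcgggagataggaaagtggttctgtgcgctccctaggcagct
In Ube2c the CHR letters began 29 bases before the start and in Ccnb2 at base 5 after it. In Cdc25b they began at base 8 after the start, with a reverse CCAAT that began 28 bases before it, and the window of Mybl2 held neither.

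The deposited values are CPM, reads scaled to a fixed library total, and whole reads could be recovered from all of them (100% in each library, within 0.01 reads). Recovered totals ranged from 16616917 to 22120641 in the control group and from 18830229 to 21892568 in the EPS group. The members had between 33 and 8503 reads in a library. The coefficient of variation between libraries was more than 2 times that of counting error for all 60 members in the EPS group and for 49 in the control group, with Mybl2 among the other 11. Control replicate 4 stood apart at low counts, with 359 genes at 1 to 5 reads where every other library had 2670 to 3181, and no member was that low in it. Levels were taken as log2(CPM + 1), limma compared EPS with control across the 19144 genes that had a read in any library, and a gene passed at an unadjusted two-sided P under 0.01 with more than a 2-fold change. Fold changes below are log2 differences of EPS minus control on this scale, given ± SE, and adjusted p-values are Benjamini-Hochberg values over all genes tested.

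Of the 60 members, 15 rose in EPS (25.0%) and 0 fell, against 0.966% of all tested genes higher and 0.439% lower. Among genes with a mean of at least 1 CPM, which all members reached, the share called higher was 1.49%. The 15 were Ccnb2, Nek2, Birc5, Cenpa, Cenpf, Kif11, Kif20a, Kif23, Racgap1, Iqgap3, Nusap1, Ckap2, Ckap2l, Dlgap5 and Ube2c. The fitted difference was above 0 in 58 members, against 63.3% of all genes and 63.6% of those with a mean of at least 1 CPM, and below 0 in Mybl2 (-0.18) and Cdc25b (-0.04). The median over the members was 0.94, with a range of -0.18 to 1.59, and the median over all genes was 0.04. At an unadjusted P under 0.05, 48 members were higher and 0 lower, against 8.4% and 3.21% of all genes. None of the 60 members had a limma adjusted p under 0.05, which 0.141% of all genes reached, and the lowest adjusted p of a member was 0.101 for Ube2c. On the recovered reads, edgeR put 30 members past the same P and fold (1.72% of all genes) and 11 at an adjusted p under 0.05 (0.778%), while DESeq2 put 28 past the P and fold (1.66%) and 16 at an adjusted p under 0.05 (1.66% of the 14676 genes with an adjusted p). Neither tool called a member lower, and edgeR called 14 of the 15 members that limma called.

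The count of 15 depended on single libraries. It was 1 without EPS replicate 1 (1.02% of all genes were called higher in that fit), 1 without EPS replicate 4 (0.805%), 2 without control replicate 1 (0.769%) and 1 without control replicate 4 (0.733%), but 26 without EPS replicate 2 (0.874%). Under median-of-ratios scaling, which moved the median of all genes with a mean of at least 1 CPM by -0.106, 4 members passed (0.7% of all genes were called higher) and the median over the 60 was 0.84. With quantile normalization 2 passed (0.679%), with a median of 0.85. The direction did not change with the count, since 58 members stayed above 0 in all 18 other settings tried.

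**Figure D1:**
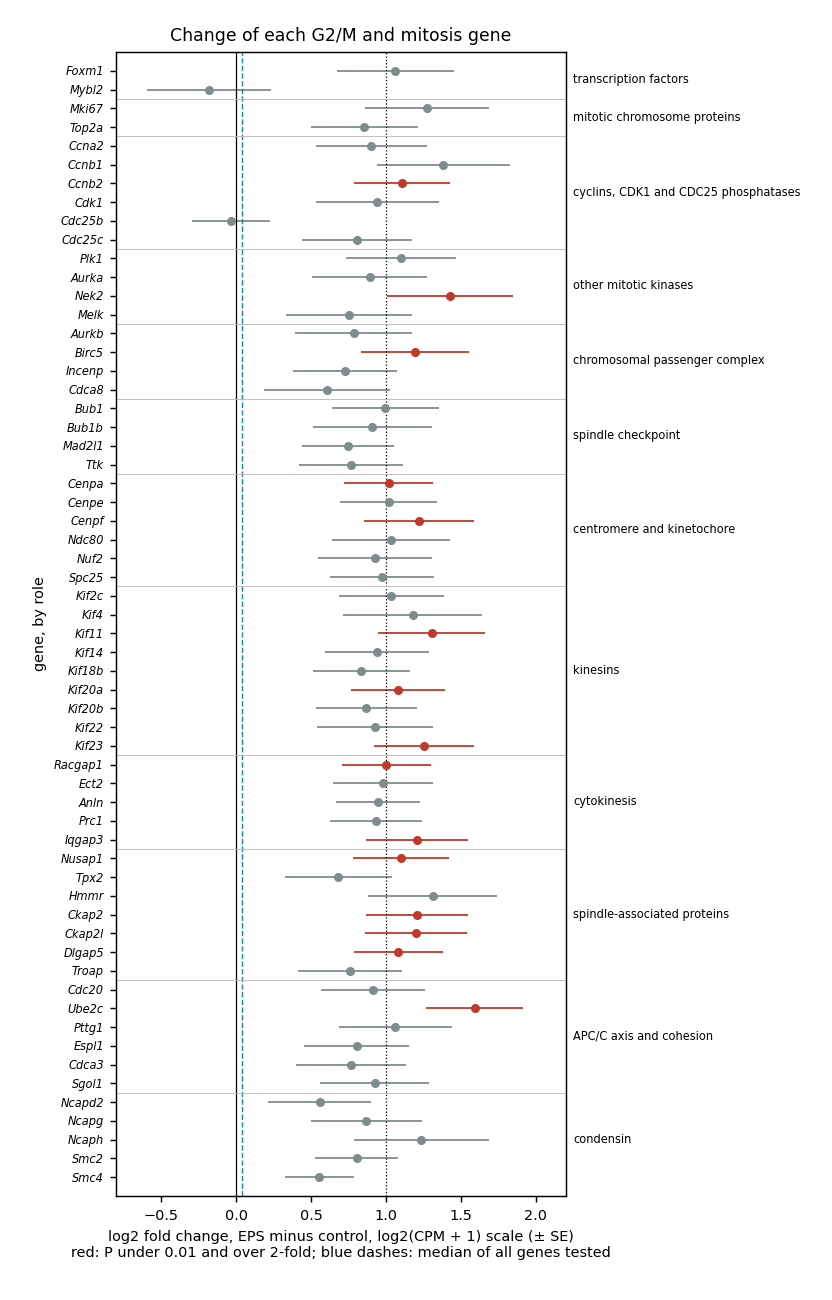
Log2 fold change of each of the 60 members (points, EPS minus control on the log2(CPM + 1) scale, bars ± SE, n = 3 and 4), grouped by role, with the 15 that passed P under 0.01 and 2-fold in red and the median of all genes as blue dashes. All members but Mybl2 and Cdc25b lie right of 0, and Ube2c lies farthest at 1.59.

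The 4 EPS libraries did not carry the increase equally. The summed level of the 60 members was 1547, 1703 and 1316 CPM in control replicates 1, 3 and 4, and 3518, 1953, 2363 and 5035 CPM in EPS replicates 1 to 4. All EPS sums therefore lay above all control sums, but EPS replicate 2 was closest to the control group and EPS replicate 4 farthest from it. EPS replicate 4 had the highest level of the 7 libraries for all 60 members. The lowest EPS level was in replicate 2 for 38 members and in replicate 3 for the other 22. Beside the control mean, the median member differed by 1.13 in EPS replicate 1, 0.38 in replicate 2, 0.51 in replicate 3 and 1.77 in replicate 4 (log2). More than 2-fold above the control mean were 44, 7, 3 and 57 members in EPS replicates 1 to 4, against 1.88%, 4.85%, 2.05% and 4.25% of genes with a mean of at least 1 CPM. Above the highest control library were 59, 37, 41 and 60 members, against 28.6%, 38.9%, 26.1% and 32.1% of genes with a mean of at least 1 CPM. For 25 members every EPS library lay above every control library, against 7.76% of all genes and 9.18% of those with a mean of at least 1 CPM, and for 0 members every EPS library lay below, against 2.85%. That count, which leaving out a library can only keep or raise, was 41 without EPS replicate 2 and 44 without control replicate 3, against 12.3% and 19.3% of the genes with a mean of at least 1 CPM.

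**Figure D2:**
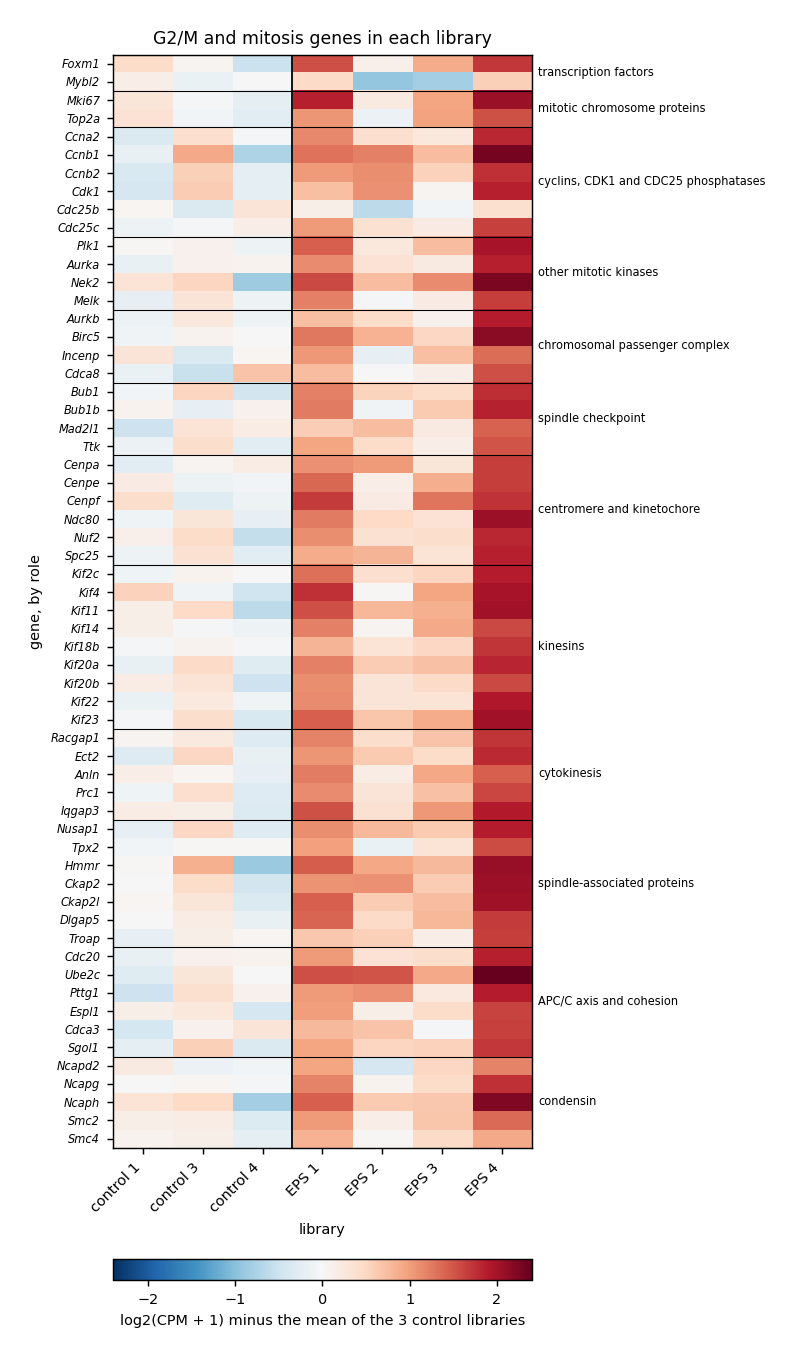
Log2(CPM + 1) of each of the 60 members in each of the 7 libraries, minus the mean of the 3 control libraries (colour scale, red above and blue below), with genes grouped by role and a black line between control and EPS. EPS replicates 1 and 4 are red across nearly all genes, with medians of 1.13 and 1.77, while replicates 2 and 3 are paler at 0.38 and 0.51, and Mybl2 is blue in both.

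Neither of the 2 transcription factors among the members passed by limma, while edgeR and DESeq2 each called 1, Foxm1. The difference between the 2 genes was not tested. Foxm1 (chromosome 6, 128362967 to 128376146 on GRCm38), the forkhead activator of late cell cycle genes, was at 22.3, 17.0 and 11.0 CPM in control replicates 1, 3 and 4 and at 48.9, 17.8, 30.7 and 54.3 CPM in EPS replicates 1 to 4. The groups overlapped through EPS replicate 2, and the other EPS libraries lay above all controls. Its log2 fold change was 1.06 ± 0.39 (limma adjusted p = 0.334), which did not pass. Foxm1 passed the same P and fold by edgeR at 1.09 (edgeR adjusted p = 0.111) and by DESeq2 at 1.07 (DESeq2 adjusted p = 0.0948). Mybl2 (chromosome 2, 163054687 to 163084688), which encodes B-MYB, was at 4.55, 3.49 and 3.98 CPM in the control group and at 5.82, 1.61, 1.83 and 6.43 CPM in EPS replicates 1 to 4. EPS replicates 1 and 4 lay above the controls and replicates 2 and 3 below them, and the log2 fold change was -0.18 ± 0.42 (limma adjusted p = 0.872). The direction for Mybl2 turned to 0.069 without EPS replicate 2 and to 0.03 without EPS replicate 3.

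The 2 genes for proteins of mitotic chromosomes, Mki67 and Top2a, both had an unadjusted P under 0.05, and neither passed by limma. Mki67 (chromosome 7, 135689784 to 135716361) encodes Ki-67, which coats mitotic chromosomes and is the usual marker of cycling cells. It was at 131, 103 and 90.0 CPM in control replicates 1, 3 and 4 and at 391, 124, 205 and 452 CPM in EPS replicates 1 to 4. EPS replicate 2 lay between the controls, and the other EPS libraries were above them. The log2 fold change of Mki67 was 1.27 ± 0.41 (limma adjusted p = 0.275), past the fold but not the P threshold. edgeR and DESeq2 both called Mki67, at 1.35 with an edgeR adjusted p of 0.0458 and at 1.34 with a DESeq2 adjusted p of 0.0191. Top2a, topoisomerase II alpha, which untangles sister chromatids, had a log2 fold change of 0.86 ± 0.35 (limma adjusted p = 0.398).

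Among the 6 genes for cyclins, CDK1 and CDC25 phosphatases, 1 rose by limma, 0 fell, each count tool called 2 and 4 had an unadjusted P under 0.05. Ccnb2, cyclin B2, was at 13.5, 26.8 and 15.1 CPM in control replicates 1, 3 and 4 and at 36.8, 39.4, 26.4 and 62.2 CPM in EPS replicates 1 to 4. Control replicate 3 was just above EPS replicate 3, and the other libraries were separate, and the log2 fold change was 1.11 ± 0.32 (limma adjusted p = 0.222). Ccna2, cyclin A2, was at 36.6, 62.6 and 45.2 CPM in the control group and at 105, 62.4, 56.1 and 166 CPM in EPS replicates 1 to 4. Only EPS replicates 1 and 4 of Ccna2 were above all controls, and its log2 fold change was 0.90 ± 0.37 (limma adjusted p = 0.390). Ccnb1, cyclin B1, had a larger difference of 1.38 ± 0.44 with a wider spread (limma adjusted p = 0.262), and control replicate 3 at 37.9 CPM was above EPS replicate 3 at 33.3 CPM. Cdk1, the kinase these cyclins activate, was at 0.94 ± 0.41 (limma adjusted p = 0.427). The CDC25 phosphatases remove the inhibitory phosphates from CDK1. Cdc25c had a difference of 0.81 ± 0.37 (limma adjusted p = 0.444), with all EPS libraries above all controls by a very narrow margin. EPS replicate 3 was at 5.62 CPM (123 reads) and control replicate 4 at 5.52 CPM (122 reads). Cdc25b was at 43.4, 32.8 and 52.0 CPM in control and 46.5, 27.0, 40.2 and 55.3 CPM in EPS, so that the groups overlapped throughout. Its difference of -0.04 ± 0.26 (limma adjusted p = 0.960) turned to 0.16 without EPS replicate 2 and to 0.11 without control replicate 4.

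Of the other mitotic kinases, 1 of 4 rose by limma, edgeR called 3 and DESeq2 2, and 3 had an unadjusted P under 0.05. Nek2, which separates the centrosomes, was at 18.5, 21.3 and 7.64 CPM in control replicates 1, 3 and 4 and at 45.3, 25.0, 33.2 and 73.5 CPM in EPS replicates 1 to 4. All EPS libraries lay above all controls, and the log2 fold change was 1.43 ± 0.42 (limma adjusted p = 0.231). Plk1, the polo-like kinase that acts from mitotic entry to cytokinesis, was at 17.8, 18.8 and 16.05 CPM in control and at 48.8, 21.1, 29.96 and 72.0 CPM in EPS. Its controls were tightly grouped and its EPS libraries all higher, yet they spread widely among themselves, and the log2 fold change of 1.10 ± 0.37 did not pass (limma adjusted p = 0.282). Aurka, the spindle pole kinase, was at 0.89 ± 0.39 and Melk at 0.75 ± 0.42 (limma adjusted p = 0.421 and 0.538).

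In the chromosomal passenger complex 1 of 4 genes rose by limma and by each count tool, and the other 3 had an unadjusted P over 0.05. Birc5 encodes survivin, which holds the complex at the centromere. It was at 12.5, 14.1 and 13.3 CPM in control replicates 1, 3 and 4 and at 33.3, 24.6, 19.1 and 63.5 CPM in EPS replicates 1 to 4. The groups were separate, with a log2 fold change of 1.19 ± 0.36 (limma adjusted p = 0.234). Incenp, the scaffold subunit and the highest of the 4 in CPM, was at 26.5, 16.5 and 22.1 CPM in control and at 44.6, 18.5, 35.9 and 55.5 CPM in EPS. EPS replicate 2 again lay among the controls, and the log2 fold change was 0.73 ± 0.35 (limma adjusted p = 0.468). Aurkb, the kinase subunit, and Cdca8, borealin, were at 0.78 ± 0.39 and 0.61 ± 0.42 (limma adjusted p = 0.485 and 0.631). For Cdca8 control replicate 4 at 23.6 CPM stood above EPS replicates 2 and 3 at 14.1 and 15.99 CPM.

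None of the 4 spindle checkpoint genes passed by limma or by DESeq2, while edgeR called 1 and 3 had an unadjusted limma P under 0.05. Bub1, a checkpoint kinase at the kinetochore, was at 19.5, 29.8 and 14.8 CPM in control replicates 1, 3 and 4 and at 48.7, 30.4, 28.4 and 72.9 CPM in EPS replicates 1 to 4. Control replicate 3 lay between EPS replicates 2 and 3, and the log2 fold change was 0.99 ± 0.36 (limma adjusted p = 0.319). Bub1b, which encodes BUBR1 of the mitotic checkpoint complex, was at 28.6, 23.5 and 29.0 CPM in control and at 65.2, 25.2, 42.1 and 99.7 CPM in EPS. EPS replicate 2 lay among its controls, and the log2 fold change was 0.91 ± 0.40 (limma adjusted p = 0.427). Mad2l1 and Ttk, the MAD2 and MPS1 proteins of the same pathway, were at 0.74 ± 0.31 and 0.76 ± 0.35 (limma adjusted p = 0.399 and 0.445).

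All 6 centromere and kinetochore genes had an unadjusted P under 0.05, 2 of them rose by limma and 5 were called by edgeR and by DESeq2. Cenpa, the histone H3 variant that marks the centromere, was at 14.3, 17.9 and 19.7 CPM in control replicates 1, 3 and 4 and at 37.8, 36.0, 21.2 and 56.5 CPM in EPS replicates 1 to 4. The groups were separate by a narrow margin at EPS replicate 3, and the log2 fold change was 1.02 ± 0.30 (limma adjusted p = 0.230). Cenpf, a large kinetochore protein, was at 68.04, 41.0 and 46.5 CPM in control and at 165, 58.0, 125 and 171 CPM in EPS. Here EPS replicate 2 and not replicate 3 was the low one, and the log2 fold change was 1.22 ± 0.37 (limma adjusted p = 0.233). The remaining 4 lay close together. Cenpe, the kinetochore kinesin, was at 1.02 ± 0.32, and Ndc80, Nuf2 and Spc25 of the complex that grips microtubule ends were at 1.03 ± 0.39, 0.93 ± 0.38 and 0.97 ± 0.35.

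The 9 kinesins, motors that build the spindle and its midzone, all had an unadjusted P under 0.05, with 3 past both thresholds by limma and 7 by each count tool. Kif23, a subunit of centralspindlin, was at 16.03, 22.7 and 12.7 CPM in control replicates 1, 3 and 4 and at 46.6, 27.0, 31.97 and 70.6 CPM in EPS replicates 1 to 4. Every EPS library was above every control, and the log2 fold change was 1.25 ± 0.33 (limma adjusted p = 0.191). Kif20a, which carries the passenger complex to the midzone, was the highest of these 9 in CPM, at 26.1, 40.7 and 24.1 CPM in control and at 69.1, 45.5, 48.5 and 107 CPM in EPS. Its log2 fold change was 1.08 ± 0.31 (limma adjusted p = 0.222), with separate groups. Kif11, the motor that pushes the spindle poles apart, also rose, by 1.30 ± 0.36 (limma adjusted p = 0.198). Kif4, the chromosome-arm kinesin, had 1.18 ± 0.46 (limma adjusted p = 0.370), with EPS replicate 2 at 11.5 CPM below control replicate 1 at 16.9 CPM. Kif2c, which depolymerises microtubule ends, was at 1.04 ± 0.35, and Kif14, Kif18b, Kif20b and Kif22 ranged from 0.84 to 0.94.

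Of the 5 cytokinesis genes 2 rose by limma, each count tool called 1, and all 5 had an unadjusted P under 0.05. Anln, anillin of the contractile ring, was at 65.8, 60.8 and 51.8 CPM in control replicates 1, 3 and 4 and at 141, 67.2, 114 and 162 CPM in EPS. All EPS libraries of Anln were above all controls, but its log2 fold change of 0.95 ± 0.28 missed the 2-fold threshold (limma adjusted p = 0.231). Iqgap3, a scaffold of the same cell cycle cluster, was at 20.9, 20.2 and 14.4 CPM in control and at 54.1, 23.8, 38.4 and 70.6 CPM in EPS. It rose by 1.20 ± 0.34 (limma adjusted p = 0.214). Racgap1, the partner of KIF23 in centralspindlin, rose by 1.00 ± 0.30 (limma adjusted p = 0.231), at the edge of the fold threshold, and edgeR and DESeq2 at 0.99 and 0.98 put it below that threshold. Ect2, which activates RhoA at the cleavage furrow, and Prc1, which bundles midzone microtubules, were at 0.98 ± 0.33 and 0.93 ± 0.31 (limma adjusted p = 0.292 and 0.276).

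Of the 7 spindle-associated proteins 4 rose by limma, and each count tool called 5. Dlgap5, which encodes HURP, was at 14.5, 16.7 and 12.8 CPM in control replicates 1, 3 and 4 and at 39.8, 20.4, 26.1 and 49.2 CPM in EPS replicates 1 to 4. The groups were separate, and it rose by 1.08 ± 0.30 (limma adjusted p = 0.200). Tpx2, the activator of Aurora A, was the highest of the 7 in CPM, at 47.1, 50.3 and 50.5 CPM in control and at 98.8, 44.2, 62.3 and 147 CPM in EPS. EPS replicate 2 was below every control library for Tpx2, and the log2 fold change was 0.68 ± 0.36 (limma adjusted p = 0.506). Nusap1, Ckap2 and Ckap2l, microtubule-binding proteins of the spindle, rose by 1.10 ± 0.32, 1.21 ± 0.34 and 1.20 ± 0.34, each with separate groups. Hmmr had a larger difference of 1.31 ± 0.43 that did not pass (limma adjusted p = 0.277), and control replicate 3 at 41.9 CPM exceeded EPS replicate 3 at 39.9 CPM. Troap was at 0.76 ± 0.35 (limma adjusted p = 0.446).

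The 6 genes of the APC/C axis, of which limma called 1 and each count tool 2, held the member with the largest change and the smallest P by limma. Ube2c (chromosome 2, 164769898 to 164778822) encodes the ubiquitin-conjugating enzyme that starts ubiquitin chains for the APC/C. It was at 11.0, 16.8 and 13.7 CPM in control replicates 1, 3 and 4 and at 41.8, 40.9, 26.5 and 76.0 CPM in EPS replicates 1 to 4. The lowest EPS library was well above the highest control, and the mean CPM was 3.35-fold higher in EPS. The log2 fold change of Ube2c was 1.59 ± 0.32, with a 95% interval of 0.86 to 2.33 (limma adjusted p = 0.101). Ube2c passed in all 7 fits that left out 1 library and in 10 of the 11 other settings, with adjusted p-values from 0.00012 to 0.524. Cdc20, the APC/C activator, was at 24.3, 29.5 and 29.2 CPM in control and at 56.7, 35.4, 37.0 and 104 CPM in EPS. Its groups were separate too, with a log2 fold change of 0.91 ± 0.34 (limma adjusted p = 0.351). Pttg1, securin, and Espl1, the separase it restrains, were at 1.06 ± 0.38 and 0.80 ± 0.35 (limma adjusted p = 0.315 and 0.426). Sgol1, shugoshin, which protects centromeric cohesion, was at 0.92 ± 0.36, and Cdca3, which acts at mitotic entry, at 0.77 ± 0.37 (limma adjusted p = 0.368 and 0.468).

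None of the 5 condensin genes passed by limma, while 4 had an unadjusted P under 0.05 and each count tool called 1. Smc4, a core ATPase of condensin and the highest of the 5 in CPM, was at 95.1, 98.5 and 75.9 CPM in control replicates 1, 3 and 4 and at 159, 90.8, 123 and 169 CPM in EPS. EPS replicate 2 lay between the controls, and the difference of 0.55 ± 0.23 was the smallest positive one among the members (limma adjusted p = 0.392). Smc2, the partner ATPase, was at 47.9, 48.9 and 34.0 CPM in control and at 89.0, 48.3, 68.8 and 112 CPM in EPS. Its log2 fold change was 0.80 ± 0.28 (limma adjusted p = 0.301). The condensin I subunits differed more among themselves, with Ncapd2 at 0.56 ± 0.34, Ncapg at 0.87 ± 0.37 and Ncaph at 1.24 ± 0.45 (limma adjusted p = 0.588, 0.410 and 0.331). For Ncaph the control libraries were at 14.5, 16.2 and 6.01 CPM, and replicate 4 was the low one.

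**Figure D3:**
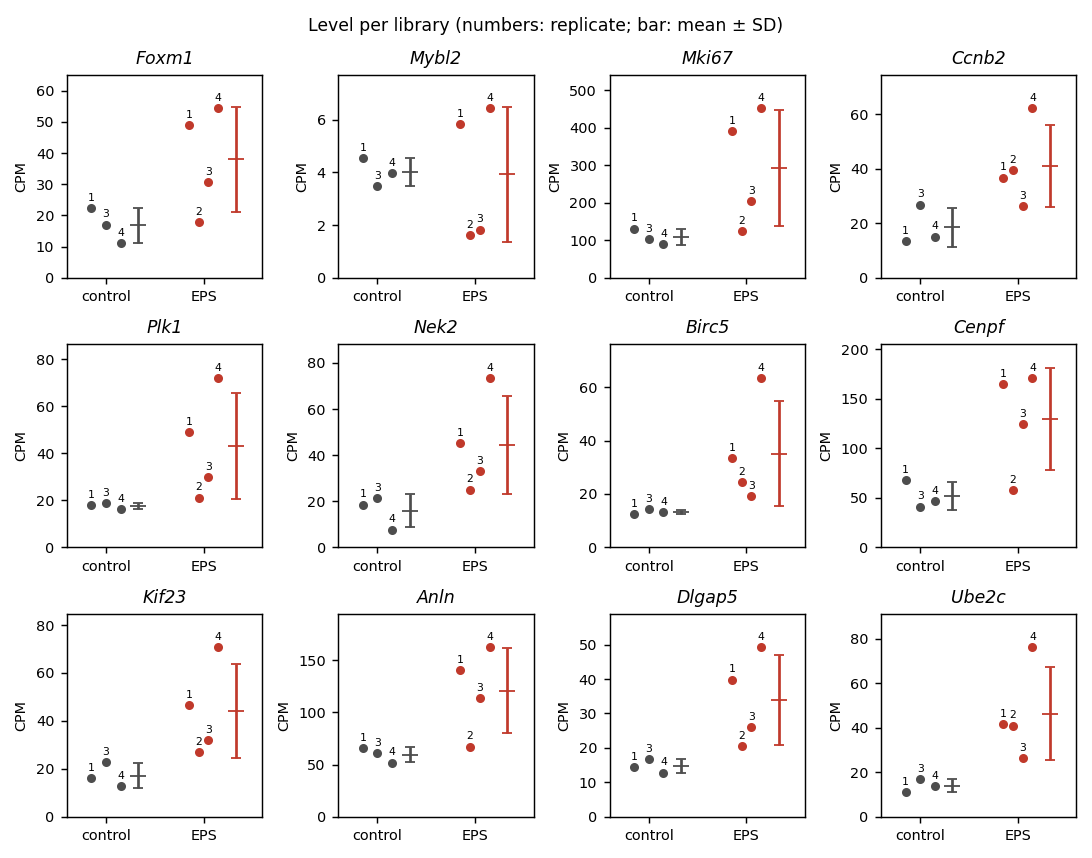
CPM of 12 of the members in the control libraries (grey, replicates 1, 3 and 4) and the EPS libraries (red, replicates 1 to 4), with each point labelled by its replicate number and a bar for the mean ± SD. EPS replicate 4 is the highest point in each panel, and Mybl2 is the panel in which EPS replicates 2 and 3 lie below the controls, at 1.61 and 1.83 CPM.

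Levels between members can be compared only roughly per length of gene, because the length sums all annotated exons and not the transcript in use. Levels also varied with length between libraries. Across 12041 genes, the deviation from the mean of all libraries had a Spearman correlation with length of 0.44, 0.06 and -0.27 in control replicates 1, 3 and 4. In the control group, mean CPM per kb of summed exons (GENCODE M21) was highest for Smc4 at 17.2, Cdc20 at 14.8 and Ccnb2 at 12.1, and lowest for Kif14 at 0.85, Mybl2 at 0.86 and Cdc25c at 0.98. In the EPS group the order at the top was Cdc20 at 31.2, Mki67 at 29.1, Ccnb2 at 26.9 and Smc4 at 26.0, with Mybl2 lowest at 0.85. Mki67 was at 10.7 in the control group. The spread over the EPS libraries was wider than the gaps between these top genes, so their order in EPS is not established. In the control group the ranges over the libraries also overlapped among Smc4, Cdc20, Ccnb2 and Ccna2 (11.8), and among Kif14, Mybl2 and Cdc25c. The order within those sets is not established either.

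The order of EPS replicates 2 and 3 moved with gene length. Of the 60 members 22 were higher in EPS replicate 2 than in replicate 3, 14 of the 30 shorter and 8 of the 30 longer ones by summed exon length. Across the 60 members, the log2 difference of replicate 2 minus replicate 3 had a Spearman correlation of -0.52 with exon length, and across 12041 genes with a mean of at least 1 CPM and a length it was -0.47. Members share these 2 libraries, so this describes the libraries and is given without a P-value. The fold change of EPS against control was hardly related to length among the members, with a Spearman correlation of 0.04. The shorter and longer members had medians of 0.95 and 0.94 and 8 and 7 calls. After a correction for length, 10 members passed, against 0.81% of the 18142 genes with a length, and the median was 0.85.

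**Figure D4:**
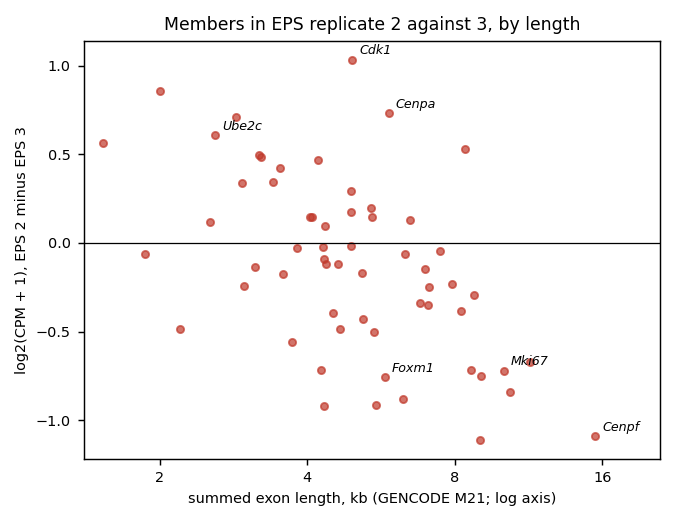
Difference of EPS replicate 2 minus replicate 3 in log2(CPM + 1) for each of the 60 members (points) against summed exon length in kb (log axis). Points fall to the right (Spearman -0.52), with Ube2c among the shorter members above 0 and Mki67 and Cenpf among the longest below it.

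Genes of the wider pathway were followed in lists beside the members. Of 58 other G2/M and mitosis genes, 24 were higher at an unadjusted P under 0.05 (8.4% of all genes), and the median log2 fold change was 0.70. By limma 3 rose and 0 fell, against 0.966% and 0.439% of all genes. The 3 were Gas2l3 (1.43 ± 0.32, limma adjusted p = 0.126), a protein that links actin and microtubules in cytokinesis, Aspm (1.43 ± 0.36, limma adjusted p = 0.164) of the spindle poles, and Sgol2 (1.21 ± 0.36, limma adjusted p = 0.236), the partner of SGOL1 at centromeres. The list had 13 calls by edgeR and 11 by DESeq2, against 1.72% and 1.66% of all genes. By limma it had 1 without control replicate 4 and 9 without EPS replicate 2, against 0.733% and 0.874% of all genes. By edgeR 2 of its genes, and by DESeq2 6, were higher at an adjusted p under 0.05, against 0.778% and 1.66% of genes with an adjusted p. The adjusted p by edgeR and DESeq2 was 0.0173 and 0.00327 for Gas2l3, 0.0185 and 0.00499 for Aspm, and 0.0632 and 0.0362 for Sgol2. In 13 of the 58 genes all EPS libraries were above all controls, against 9.18% of genes with a mean of at least 1 CPM.

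Genes for proteins that work with the members, but are made throughout the cycle, had lower median differences than the members' 0.94. That comparison was not tested. Among 23 constitutive APC/C, checkpoint and cohesin partners, limma, edgeR and DESeq2 called 0, no gene had an unadjusted P under 0.05, and the median was 0.13. The 2 with the smallest P were Anapc1, the largest APC/C subunit (0.48 ± 0.21, limma adjusted p = 0.439), and the cohesin subunit Stag1 (0.37 ± 0.19, limma adjusted p = 0.5001). Among 12 genes of the MuvB core and its repressive partners, which hold CHR promoters silent in resting cells, the 3 tools also called 0 with none at an unadjusted P under 0.05, and the median was 0.20. Rbl2, which encodes the pocket protein p130, was at 0.44 ± 0.20 (limma adjusted p = 0.444), and Lin54, the subunit that reads the CHR, was at 0.50 ± 0.27 (limma adjusted p = 0.515).

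Genes of G1/S and DNA replication, the stage before the members act, had 0 calls among 44 by limma, edgeR and DESeq2, with a median of 0.20. At an unadjusted P under 0.05, 4 were higher and 1 was lower, against 8.4% and 3.21% of all genes. The lower one was E2f2, an activator of S phase genes (-0.73 ± 0.17). It was at 143, 102 and 117 CPM in control replicates 1, 3 and 4 and at 77.8, 59.4, 79.3 and 73.3 CPM in EPS replicates 1 to 4. The adjusted p of E2f2 was 0.139 by limma, 0.0558 by edgeR and 0.0112 by DESeq2. Rfc3, a clamp loader subunit, was at 0.76 ± 0.25 (limma adjusted p = 0.277). By library, the list's median difference from the control mean was 0.47, -0.18, -0.28 and 1.03 in EPS replicates 1 to 4, where the members' was 1.13, 0.38, 0.51 and 1.77. In replicates 2 and 3 the replication genes therefore lay mostly below the control mean while the members lay mostly above it. The ratio of the summed members to the summed replication genes, a measure chosen after the values were seen, was 1.49, 1.51 and 1.23 in the control libraries and 2.52, 1.93, 2.57 and 2.53 in EPS replicates 1 to 4. The ratio varied less among the EPS libraries than the summed level did.

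**Figure D5:**
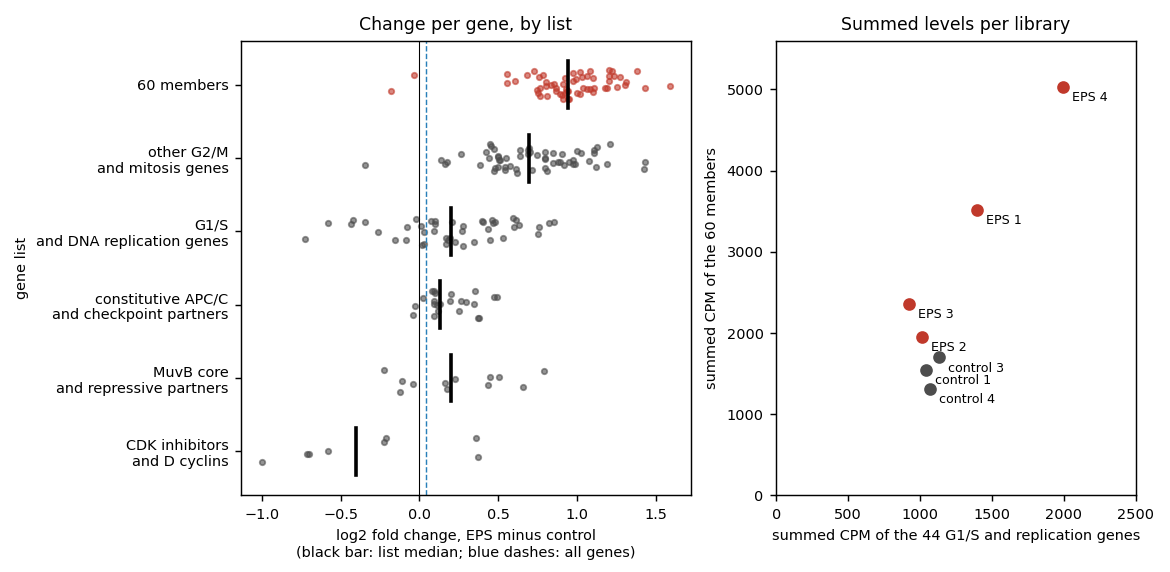
Left, log2 fold change of each gene in the members and 5 lists of related genes (points), with list medians as black bars and the median of all genes as blue dashes. Right, summed CPM of the 60 members against that of the 44 G1/S and replication genes for each library, where EPS replicates 2 and 3 lie above the controls at similar replication gene sums and EPS replicate 4 is highest on both axes.

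Among the CDK inhibitors and D-type cyclins, 8 of 10 were tested and Cdkn2a and Cdkn2b were listed at 0 in all 7 libraries. By limma 0 passed, 2 were lower and 0 higher at an unadjusted P under 0.05, and the median was -0.40. Ccnd3, the D cyclin of differentiating muscle, was at 373, 421 and 560 CPM in control replicates 1, 3 and 4. In EPS replicates 1 to 4 it was at 335, 291, 257 and 220 CPM, with all EPS libraries below all controls (-0.70 ± 0.21). The adjusted p of Ccnd3 was 0.236 by limma, 0.106 by edgeR and 0.0183 by DESeq2. Cdkn1c, the inhibitor p57, was at 25.4, 42.9 and 75.0 CPM in control and at 34.7, 17.5, 17.4 and 19.1 CPM in EPS (-1.002 ± 0.37). The adjusted p of Cdkn1c was 0.338 by limma, 0.0548 by edgeR and 0.0346 by DESeq2. edgeR and DESeq2 each called 1 gene of this list lower, which was Cdkn1c, and without control replicate 4 its limma difference was -0.62.

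Markers of the cell states that the dish could hold were read beside the members. Myotube markers, of which 18 of 20 symbols were listed, summed to between 27211 and 29188 CPM in the control group and between 19893 and 29129 CPM in the EPS group. Limma called 0 of the 18, with 2 lower at an unadjusted P under 0.05. The fold change was above 0 in 6 of the 18 and below 0 in 12, and the median was -0.16. edgeR and DESeq2 called 3 lower each, Myog, Gm7325 and Actn2. The adjusted p by edgeR and DESeq2 was 0.0202 and 0.00622 for Actn2, 0.0625 and 0.0303 for Myog, and 0.110 and 0.110 for Gm7325. Myog, the factor myogenin, was at 473, 565 and 1794 CPM in control replicates 1, 3 and 4 and at 281, 605, 406 and 278 CPM in EPS replicates 1 to 4. The ratio of its mean CPM in EPS to control moved from 0.416 to 0.756 without control replicate 4, and EPS replicate 2 lay above the other controls. The sum was 29129, 25102, 24651 and 19893 CPM in EPS replicates 1 to 4. EPS replicate 4, with the highest sum of the members, thus had the lowest myotube sum, while EPS replicate 1, the next in its members, had the highest myotube sum of the EPS group. Actn2, sarcomeric alpha-actinin, was at -0.99 ± 0.26 (limma adjusted p = 0.177), and Gm7325, an older symbol of the fusion peptide myomixer, at -0.999 ± 0.39 (limma adjusted p = 0.368).

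Markers of undifferentiated myoblasts and reserve cells, 13 of 13 listed, summed to between 709 and 878 CPM in the control group and between 554 and 598 CPM in the EPS group. Vcam1 fell by 1.21 ± 0.23 (limma adjusted p = 0.0914), and Id1, an inhibitor of myogenic factors, was at -1.09 ± 0.37 (limma adjusted p = 0.282). Limma called 1 lower and 0 higher, 4 were lower at an unadjusted P under 0.05, 12 of the 13 had a fold change below 0, and the median was -0.43. edgeR and DESeq2 each called 4 lower, Vcam1, Id1, Id3 and Msx1, with 2 at an adjusted p under 0.05, Vcam1 and Id1. The adjusted p by edgeR and DESeq2 was 0.0038 and 6.04e-05 for Vcam1 and 0.021 and 0.00677 for Id1. Without control replicate 4 the ratio of mean CPM in EPS to control moved from 0.413 to 0.901 for Msx1 and from 0.414 to 0.631 for Id1, and for Vcam1 it was 0.435 and 0.414. No marker of this list was at 0 in a library, with Pax7 at a mean of 20.2 CPM in control and 18.1 CPM in EPS and Myf5 at 6.11 and 7.41 CPM. Leukocyte markers summed to between 0.76 and 1.08 CPM in control and between 1.26 and 2.76 CPM in EPS, with Cd3e at 0 in all libraries. Csf1r had a log2 fold change of 0.34 ± 0.11 (limma adjusted p = 0.283) and Cd68 of 0.41 ± 0.20 (limma adjusted p = 0.472). Endothelial markers summed to between 1.62 and 3.30 CPM in control and between 1.01 and 1.91 CPM in EPS, with Kdr at 0 in every control library. Vwf was at -0.56 ± 0.22 (limma adjusted p = 0.365) and Kdr at 0.10 ± 0.05 (limma adjusted p = 0.499). No leukocyte or endothelial marker was called by limma, edgeR or DESeq2, and 1 of each list had an unadjusted limma P under 0.05. The part of cell makeup in the level of the members was not tested.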

How the data were processed

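RNA of C2C12 myotubes from 3 control and 4 EPS libraries was selected for poly(A), and strand-specific libraries were read from both ends (100 bp each). The submitters' processing notes name STAR 2.5.4b and GRCm38. Each deposited file gives the CPM of 26607 genes by symbol, which is the share of its library's gene reads on a fixed scale. The read counter, annotation, strand setting and treatment of reads with several matches are not given in the sources used here, so values of genes with near-identical copies or overlapping neighbours are uncertain. The methods of the study name a log2 transform, quantile normalization, edgeR and a P-value threshold of 0.001, while its results use P under 0.01 with more than 2-fold, as here, but the deposited values carry neither the transform nor the normalization.

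Groups and replicate numbers were taken from the sample labels. log2(CPM + 1) was tested with limma 3.58.1 in R 4.3.3 (empirical Bayes with a trend, two-sided), using all 7 libraries and no covariate, over the genes with any read. A gene passed at P under 0.01 and more than 2-fold. The pseudocount of 1 understates changes of low genes. Reads were recovered as whole multiples of the CPM value of 1 read and tested with edgeR 4.0.16 and DESeq2 1.42.0 as alternatives, because the deposited unit is CPM. Also tried were median-of-ratios scaling, quantile normalization, pseudocounts of 0.1 or 0.5, only genes with a mean of at least 1 CPM, the replicate number as a block, robust empirical Bayes, P under 0.001 and leaving out each library. A length correction and leaving out control replicate 4 with EPS replicate 4 were chosen after seeing the data. Positions and exon lengths came from GENCODE M21 (GRCm38), in which symbols matched for 24531 of the 26607 genes. The tests were tried on simulated reads.

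The members, their 12 role groups and the lists of related genes and markers were chosen with earlier results of these data known, so no P-value was computed for a list. Values in every library are given for Foxm1, Mybl2 and, in each other role group, the member with the highest mean CPM and the one with the smallest P. All members that passed or were lower are named with their fold change, and in each list the 2 genes with the smallest P. Values given for other members, and for genes that only edgeR or DESeq2 called, were added after they were seen. The number of reads behind a level sets its counting error only, and PCR copies are not independent molecules.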

Additional observations from a re-analysis of the deposited data

Results flagged for a closer look

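Among 75 items checked for a library far from the rest of its group, which were the 60 members, their summed level and named genes of the related lists, 1 stood out. Cdkn1c, which encodes the CDK inhibitor p57, was at 34.7 CPM in EPS replicate 1 and at 17.5, 17.4 and 19.1 CPM in EPS replicates 2 to 4, a gap of 0.902 of the group's range, above Dixon's critical value for 4 samples. Chance alone marks some groups at this level, and no explanation was tested. No member had an EPS library that far from the others.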

How the results depend on the processing

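The median fold change of the members stayed positive in every setting (0.61 to 1.13), and 0 members were called lower in any. The count called higher, 15 as reported, was 30 with edgeR, 28 with DESeq2, 25 with a pseudocount of 0.1, 4 with median-of-ratios scaling, 2 with quantile normalization, 1 at P under 0.001 and 1 without control replicate 4 and EPS replicate 4 together. Leaving out 1 library gave 1 to 26 (1 without EPS replicate 1, EPS replicate 4 or control replicate 4, 2 without control replicate 1, 26 without EPS replicate 2). Other settings, apart from the replicate block given below, gave 10 to 22. Members at an adjusted p under 0.05, 0 as reported, were 16 with DESeq2, 11 with edgeR, 1 with a minimum mean of 1 CPM, 1 with a pseudocount of 0.1 and 0 in every fit without 1 library. Members whose groups do not overlap, 25 as reported, ranged from 25 to 44 when 1 library was left out, which can only keep or raise that count. Over all genes, 185 were called higher and 84 lower, against 329 and 300 with edgeR, 317 and 268 with DESeq2, 445 and 156 with a pseudocount of 0.1, 134 and 120 with median-of-ratios scaling, 130 and 122 with quantile normalization, and 147 and 154 after the length correction. Replicate numbers were not shown to pair the libraries: deviations of same-numbered libraries correlated at 0.25, -0.45 and 0.07 for numbers 1, 3 and 4 across 12256 genes. With the number as a replicate block, which uses 3 pairs and leaves EPS replicate 2 without a partner, 9 members and over all genes 99 higher and 62 lower passed, and Ube2c did not (adjusted p = 0.524). Mybl2 changed sign to 0.069 with the block, 0.069 without EPS replicate 2 and 0.030 without EPS replicate 3 (range without 1 library -0.43 to 0.069), and Cdc25b to 0.16 with the block, 0.16 without EPS replicate 2 and 0.11 without control replicate 4 (range -0.21 to 0.16). The cause was not tested. The lowest value of a member was 33 reads, and for 11 members the control spread was at most 2 times counting error.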
